A study of Mus musculus with 3 samples.

Results

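The expression of 9 photoreceptor outer segment and cilium genes that are mutated in inherited retinal disease was examined in rods and in cones of the mouse retina by single-cell RNA sequencing. The genes were chosen by name: Rp1, Rp1l1, Prph2, Rom1, Rpgrip1, Tulp1, Prom1, Cdhr1 and Reep6. All 9 were among the 18545 genes of the deposited matrix. No expression value entered the choice, but the list was drawn up with earlier results of these libraries known.

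The photoreceptor outer segment is a modified sensory cilium. It is filled with stacked membrane discs, joined to the cell body by a narrow connecting cilium, and renewed throughout life, so that proteins and lipids must be moved constantly from the inner segment. Rods keep their discs enclosed within the outer segment, whereas the discs of cones stay continuous with the plasma membrane. Mutations in these genes cause retinitis pigmentosa, in which rods are affected first, cone-rod dystrophy, macular dystrophy or Leber congenital amaurosis.

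There were 3 groups, each sequenced as 1 pooled 10x Genomics droplet library, from mice aged 8 weeks that had been kept in the dark all their lives. WT was wild-type C57BL/6J on base chow, with retinas of both sexes. The group rd10-vehicle was female rd10 mice, labelled C57BL/6J, on the same base chow, and rd10-TMB was female rd10 mice given tamsulosin, metoprolol and bromocriptine (TMB) in the chow. The rd10 strain carries a missense mutation in Pde6b, a subunit gene of the rod phosphodiesterase, in every cell of the body, and loses rods before cones. Tamsulosin blocks alpha-1 adrenergic receptors, metoprolol blocks beta-1 adrenergic receptors, and bromocriptine activates dopamine D2-like receptors. Each library pooled single retinas of 4 mice according to the labels, but the study's text names a smaller number of rd10 animals. With 1 library per group there was no replicate and therefore no test. The intervals in brackets are 95% intervals that cover counting error alone, and a difference outside them is one between these libraries.

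The libraries held 4478 WT, 5952 rd10-vehicle and 4812 rd10-TMB cells, with 7 to 10 cell barcodes shared between any 2 libraries. Rods were cluster 1 of the deposited annotation, with 1180, 556 and 746 cells in the order WT, rd10-vehicle and rd10-TMB, and cones were cluster 4, with 278, 542 and 412 cells. All values in threes below follow that order of libraries. All 9 rod markers used here passed in cluster 1 and all 10 cone markers in cluster 4, so both labels held. Rods were sparsely sampled, with a median of 1423, 1406 and 1536 unique molecular identifiers (UMIs) per cell, against 5333, 4857 and 5548.5 in cones. Because a tag count cannot show a point mutation, the level of Pde6b does not check the rd10 genotype. Pde6b stood at 1746, 1477 and 1585 CPM in rods, where CPM is the summed UMIs of a gene in a cluster scaled to 1000000 UMIs of that cluster.

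The places of the genes in the genome and the promoters of 4 of them are given first. In the RefSeq annotation of mouse build GRCm38.p6, Rp1 lies on the minus strand at chr1:4115673-4409266, Rp1l1 on the plus strand at chr14:63992431-64033506, Prph2 on the plus strand at chr17:46910478-46924933 and Rom1 on the minus strand at chr19:8927382-8929356. Rpgrip1 lies on the plus strand at chr14:52104241-52161339, Tulp1 on the minus strand at chr17:28351515-28365216 and Prom1 on the minus strand at chr5:43993621-44102047. Cdhr1 lies on the minus strand at chr14:37077849-37098347 and Reep6 on the plus strand at chr10:80329997-80336441. Annotated transcripts overlap 3 of the genes: Gm6101 and Gm37483 overlap Rp1 and Gm42716 overlaps Prom1 on the same strand, and Supt16 overlaps Rpgrip1 and Gm16401 overlaps Prom1 on the other strand. Reads in the overlaps may have been lost or assigned to the other transcript.

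The 250 bases upstream of the start site were available from RefSeq for 6 of the 9 genes, as 7 promoters. They were searched on both strands for TAATCC, the core letters bound by the photoreceptor homeobox factor CRX, and for TGCTGA, the core letters bound by the rod factor NRL. Only the Rpgrip1 promoter held either one, and it held both, each as its reverse complement (TCAGCA for NRL, GGATTA for CRX), shown in capitals and not overlapping each other. Among all 32851 promoters of that length, 6.25% held the CRX letters, 16.1% the NRL letters and 0.962% both, so 1 of 7 is near the general share for each motif alone. A missing exact match says only that those letters are not in this window. Shown 5′ to 3′ on the strand of the gene are Rpgrip1 (chr14:52110653-52110902, upstream of an internal start site of the gene), the disc-rim pair Prph2 (chr17:46910228-46910477) and Rom1 (chr19:8929357-8929606), whose tags were out of step in cones, and Cdhr1 (chr14:37098348-37098597), which leaned to cones.
Rpgrip1: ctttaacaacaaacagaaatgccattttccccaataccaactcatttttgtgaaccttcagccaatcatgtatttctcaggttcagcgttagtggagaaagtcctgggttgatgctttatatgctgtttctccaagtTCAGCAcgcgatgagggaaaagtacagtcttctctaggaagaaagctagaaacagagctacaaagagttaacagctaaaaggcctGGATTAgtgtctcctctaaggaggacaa
Prph2: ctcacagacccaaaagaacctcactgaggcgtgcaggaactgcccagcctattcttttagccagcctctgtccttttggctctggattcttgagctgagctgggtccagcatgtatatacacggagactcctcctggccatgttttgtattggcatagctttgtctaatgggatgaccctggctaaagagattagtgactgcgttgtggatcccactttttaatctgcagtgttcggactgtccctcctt
Rom1: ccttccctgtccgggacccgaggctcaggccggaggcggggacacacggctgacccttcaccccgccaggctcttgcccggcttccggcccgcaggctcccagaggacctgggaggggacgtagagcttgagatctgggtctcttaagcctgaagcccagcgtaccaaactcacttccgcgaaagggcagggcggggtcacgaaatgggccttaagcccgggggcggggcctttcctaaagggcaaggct
Cdhr1: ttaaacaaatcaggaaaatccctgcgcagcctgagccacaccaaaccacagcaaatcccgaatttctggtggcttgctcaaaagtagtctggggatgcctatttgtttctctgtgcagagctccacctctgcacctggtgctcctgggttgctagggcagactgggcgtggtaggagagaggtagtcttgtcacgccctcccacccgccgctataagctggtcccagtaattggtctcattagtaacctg

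Rods and cones were then compared within each library, where handling, chow and depth of sequencing are shared. Of the 9 genes, 5 (Rp1, Prph2, Rom1, Prom1 and Reep6) were at least 2-fold higher in rods than in cones in all 3 libraries, while Rpgrip1 was less than 2-fold higher in rods, Rp1l1 and Tulp1 were near equal, and Cdhr1 was higher in cones. Of all genes, 12.3%, 10.8% and 10.9% were at least 2-fold higher in rods in the single libraries, and 5.16% (464 of 8988) in all 3 libraries. At least 2-fold lower in rods were 8.87%, 10.0% and 10.4% of all genes, and of the 9 genes only Cdhr1 in WT. The median log2 ratio of rods over cones was 1.20, 1.10 and 1.44 over the 9 genes, beside 0.11, 0.10 and 0.09 over all genes. Since the clusters were made from these cells and genes, rods against cones is a description and carries no test.

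**Figure D1:**
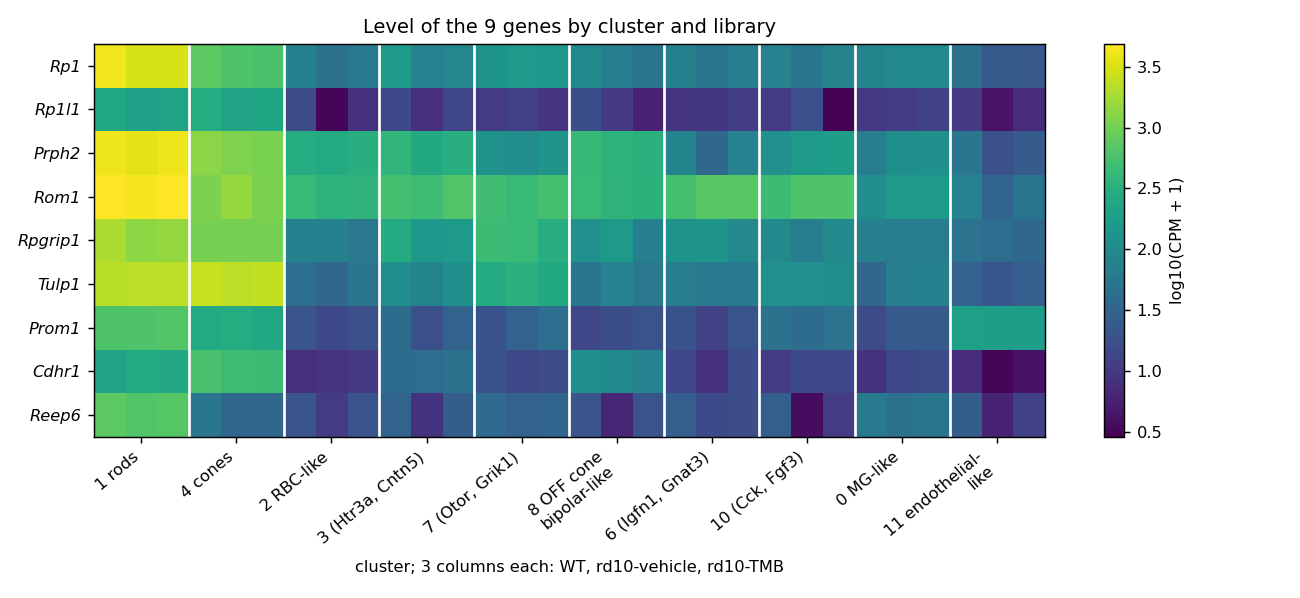
Level of each gene, as log10(CPM + 1), in the 10 clusters with at least 50 cells in every library, each with 3 columns for WT, rd10-vehicle and rd10-TMB. The columns of rods and cones are the brightest for 8 of the 9 genes, while Reep6 in cones is no brighter than in the Müller glia-like cluster.

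Of the 2 genes of the axonemal microtubules, only Rp1 differed between rods and cones beyond counting error. Rp1 encodes a microtubule-binding protein with doublecortin domains that is needed to stack discs along the axoneme. Its level in rods was 4153 (4059 to 4248), 3070 (2954 to 3189) and 3105 CPM (3009 to 3204). In cones it was 745 (700.5 to 791), 618 (588 to 649) and 571 CPM (540 to 604). Rod and cone levels did not overlap in any library, and both were highest in WT. The log2 ratio of rods over cones for Rp1 was 2.48 (2.39 to 2.57), 2.31 (2.22 to 2.40) and 2.44 (2.35 to 2.54), a fold of 5.57, 4.96 and 5.43.

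Rp1l1, which encodes a relative of the Rp1 protein at the same axoneme, showed no such lean. It stood at 251 (228 to 275), 203 (174 to 236) and 209.7 CPM (185 to 237) in rods and at 284 (257 to 313), 218 (201 to 237) and 226 CPM (206 to 247) in cones. The intervals of rods and cones overlapped in each library. The log2 ratio was -0.18 (-0.38 to 0.02), -0.10 (-0.36 to 0.14) and -0.11 (-0.33 to 0.11), with 0 inside each interval. These intervals leave room for a ratio as low as -0.38, in favour of cones.

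Both genes of the disc rim leaned to rods. Prph2 encodes peripherin-2, a tetraspanin that bends the disc membrane at its edge. In rods Prph2 stood at 4031 (3939 to 4125), 3547 (3422 to 3675) and 4021 CPM (3911 to 4133), and in cones at 1335 (1275 to 1396), 1168 (1127 to 1211) and 1092 CPM (1049 to 1137). The Prph2 intervals of WT and rd10-TMB rods overlapped, and that of rd10-vehicle rods lay below both. The log2 ratio of rods over cones was 1.59 (1.52 to 1.67), 1.60 (1.53 to 1.68) and 1.88 (1.81 to 1.95).

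Rom1 encodes the tetraspanin partner of peripherin-2 in the same rim complexes. Its level in rods was 4707 (4607 to 4808), 4396 (4257 to 4539) and 4840 CPM (4720 to 4963), and in cones 1117 (1062 to 1173), 1507 (1460 to 1555) and 1127 CPM (1082 to 1172). The cones of rd10-vehicle stood above those of both other libraries, which overlapped each other. The log2 ratio of rods over cones for Rom1 was 2.07 (2.0 to 2.15), 1.54 (1.48 to 1.61) and 2.10 (2.04 to 2.17).

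The balance of the disc-rim pair was followed as Rom1 UMIs per Prph2 UMI, a ratio of tags that need not equal the ratio of molecules. In rods it was 1.17 (1.13 to 1.21), 1.24 (1.18 to 1.30) and 1.20 (1.16 to 1.25), so the intervals of neighbouring libraries overlapped. In cones it was 0.836 (0.782 to 0.895), 1.29 (1.23 to 1.35) and 1.03 (0.974 to 1.09). The 3 cone intervals did not overlap, and only WT cones had clearly fewer Rom1 than Prph2 tags.

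The genes of the connecting cilium and of transport to the outer segment ranged from rod-leaning to slightly higher in cones. Rpgrip1 encodes the scaffold that holds RPGR in the connecting cilium. In rods Rpgrip1 stood at 1936 (1873 to 2002), 1391 (1313 to 1472) and 1515 CPM (1448 to 1585), whereas in cones it was almost level, at 1065 (1012 to 1120), 1055 (1015 to 1095) and 1068 CPM (1025 to 1112). The log2 ratio of rods over cones was therefore largest in WT, at 0.86 (0.77 to 0.95), and smaller in rd10-vehicle, at 0.40 (0.30 to 0.50), and rd10-TMB, at 0.50 (0.42 to 0.59).

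Tulp1 encodes a tubby-like protein that helps carry proteins from the inner to the outer segment. Its rod levels of 2177 (2109 to 2246), 2334 (2233 to 2439) and 2287 CPM (2204 to 2372) were close to its cone levels of 2572 (2489 to 2657), 2311 (2253 to 2371) and 2434 CPM (2369 to 2501). Cones were higher in WT, with a log2 ratio of -0.24 (-0.31 to -0.18), and slightly higher in rd10-TMB, with -0.09 (-0.16 to -0.02). In rd10-vehicle the ratio for Tulp1 was 0.01 (-0.06 to 0.09).

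Reep6 showed the strongest lean to rods of the 9. It encodes an endoplasmic reticulum protein needed in rods for membrane traffic of outer segment proteins. Rods held 748 (709 to 789), 653 (600.1 to 709) and 680 CPM (635 to 727) of Reep6, while cones held 52.6 (41.4 to 66.0), 35.1 (28.2 to 43.1) and 34.5 CPM (27.1 to 43.3), from 75, 90 and 75 UMIs. The log2 ratio was 3.81 (3.49 to 4.18), 4.20 (3.89 to 4.56) and 4.28 (3.96 to 4.66), which is 14.0-, 18.4- and 19.5-fold. The Müller glia-like cluster, a cell type outside the photoreceptor lineage, held 62.0, 45.5 and 51.3 CPM, so cones had no more Reep6 than these cells in any library. The rod bipolar-like cluster held less, at 19.9, 9.94 and 19.3 CPM.

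The 2 genes of new discs went opposite ways. Prom1 encodes prominin-1, a membrane protein of open, newly forming discs. In rods Prom1 stood at 632 (596 to 669.6), 618 (567 to 673) and 665 CPM (621 to 712), and in cones at 274 (247 to 302), 288 (267 to 309) and 245 CPM (224 to 267). The log2 ratio of rods over cones was 1.20 (1.04 to 1.38), 1.10 (0.94 to 1.27) and 1.44 (1.28 to 1.60), close to the 2-fold limit in rd10-vehicle. It was 0.96 there under median-of-ratios scaling, and 0.97 in WT and 0.96 in rd10-vehicle when cells were thinned.

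Cdhr1 encodes a cadherin-related protein at the leading edge of nascent discs. It was the one gene that was higher in cones beyond counting error in all 3 libraries, with 577 (538 to 618), 479 (452 to 506) and 475 CPM (446 to 505) in cones and 219.7 (199 to 242), 269.6 (236 to 307) and 253 CPM (226 to 283) in rods. The log2 ratio was -1.39 (-1.57 to -1.22), -0.82 (-1.04 to -0.63) and -0.90 (-1.09 to -0.72). In rd10-vehicle it was -0.40 when only cells with at least 1000 genes were kept.

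**Figure D2:**
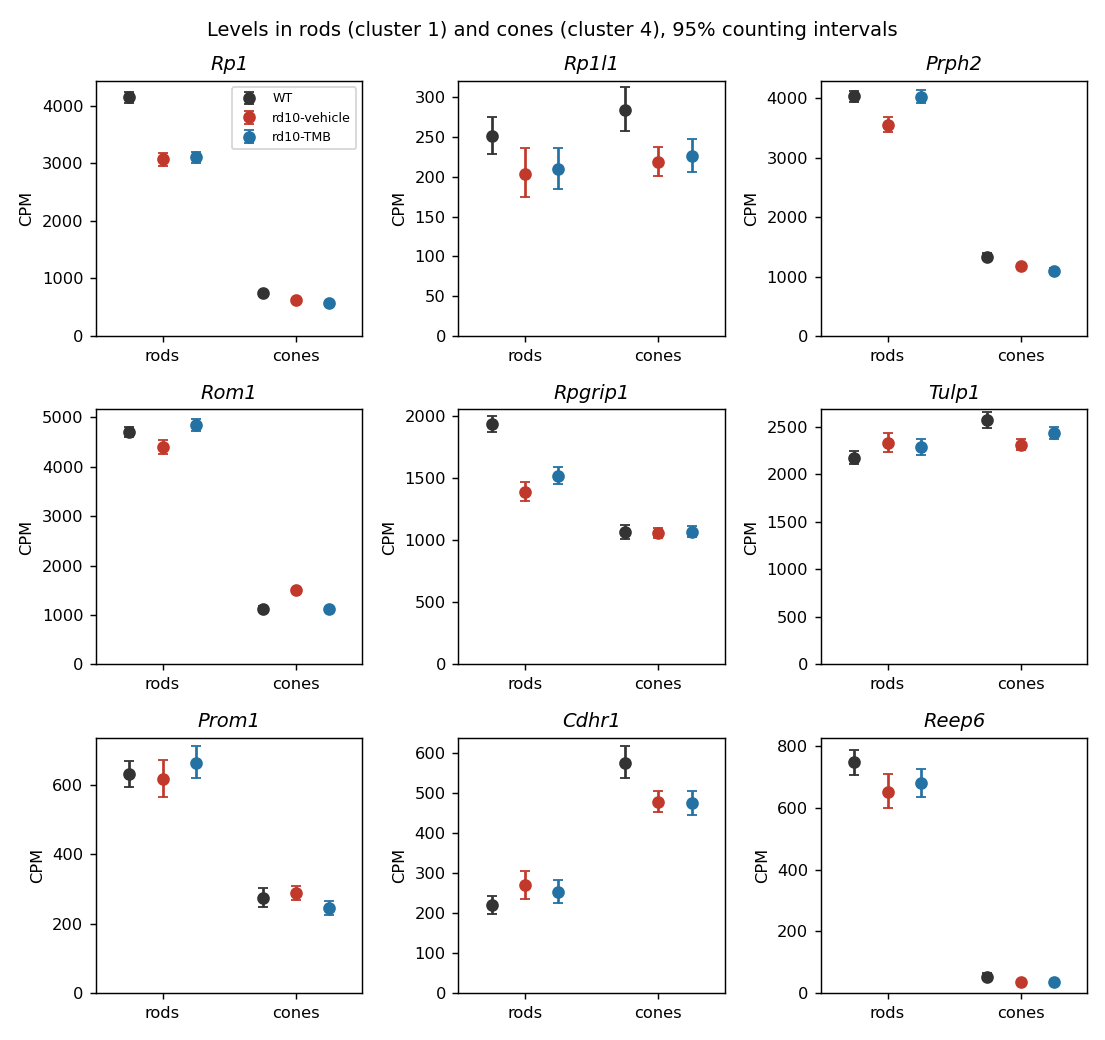
Level in CPM (linear axis from 0) of each gene in rods and cones of the 3 libraries, with 95% counting intervals, 1 pooled library per point. Rp1, Prph2, Rom1, Prom1 and Reep6 are higher in rods in every library, Cdhr1 is higher in cones, and Rom1 in cones is highest in rd10-vehicle.

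**Figure D3:**
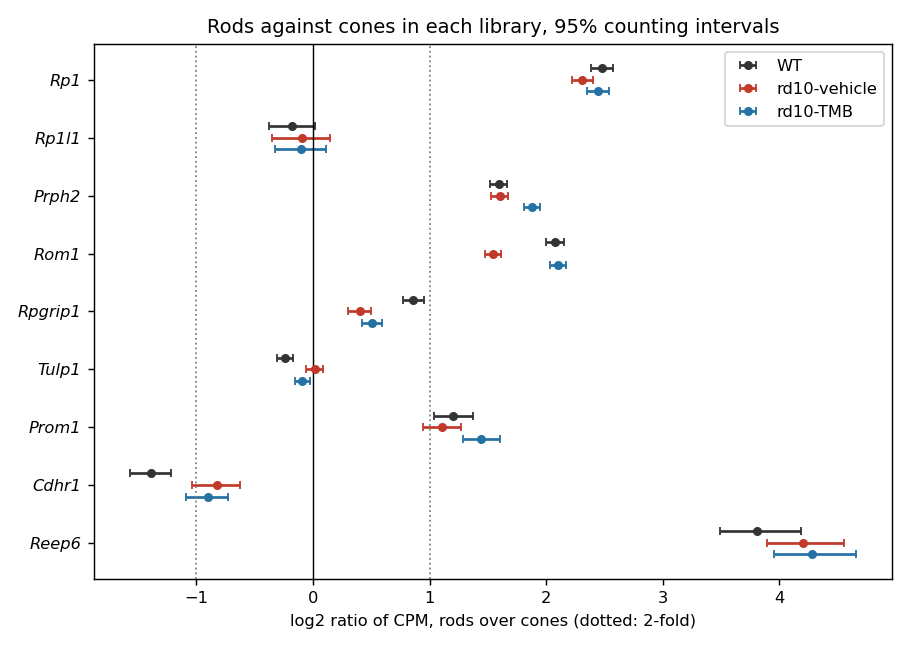
Log2 ratio of CPM in rods over cones for each gene and library with 95% counting intervals, the solid line at equality and the dotted lines at 2-fold. The ratios run from -1.39 for Cdhr1 in WT to 4.28 for Reep6 in rd10-TMB.

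Ordered by the mean log2 ratio over the libraries, the genes ran from Reep6 (4.10) through Rp1 (2.41), Rom1 (1.91), Prph2 (1.69), Prom1 (1.25), Rpgrip1 (0.59), Tulp1 (-0.11) and Rp1l1 (-0.13) to Cdhr1 (-1.04). Neighbours in that order that overlapped over the 3 libraries were Rom1 and Prph2, whose ranges of 1.54 to 2.10 and 1.59 to 1.88 crossed, and Tulp1 and Rp1l1. The ratio differed most between libraries for Cdhr1, by 0.57, and Rom1, by 0.56, and least for Rp1l1, by 0.08, and Rp1, by 0.17. RNA set free from broken rods reaches other droplets, and Gnat1, the rod transducin alpha subunit gene, was used to gauge it, a choice made after seeing the data. Gnat1 stood at 106, 68.6 and 83.3 CPM in cones, against 4375, 4521 and 4328 in rods and 103, 125 and 126 in the Müller glia-like cluster. Set against the level that this Gnat1 would carry along in the proportions of rods, Rp1 in cones was 7.40, 13.3 and 9.56 times that level, Rom1 9.79, 22.6 and 12.1 times, and Cdhr1 108, 117 and 97.5 times. The lowest of the 9 was Reep6, at 2.91, 3.54 and 2.64 times that level in cones.

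How many single cells carried each transcript was asked after thinning every cell to 1000 UMIs, which left out 226, 68 and 80 rods and 5, 11 and 15 cones. Rods then held a mean of 5.91, 5.57 and 5.70 of the 9 genes per cell, cones 4.29, 4.22 and 4.08, and the Müller glia-like cells 0.446, 0.467 and 0.490. The standard deviation between rods of 1 library was 1.14 to 1.18 genes. Summed over the 9 genes, a rod gave a mean of 18.9, 16.6 and 17.5 UMIs in 1000 and a cone 8.23, 7.79 and 7.38, and the 9 genes made up 1.89%, 1.65% and 1.76% of all UMIs of rods and 0.802%, 0.768% and 0.727% of those of cones.

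Rp1 was seen in 95.5%, 90.0% and 90.8% of thinned rods, in 43.6%, 46.5% and 39.0% of thinned cones and in 8.16%, 7.23% and 8.22% of thinned Müller glia-like cells. Without thinning these shares were 97.7%, 93.5% and 96.5% in rods, 92.1%, 86.2% and 85.4% in cones and 33.8%, 32.2% and 36.4% in the glia, whose median depth was 6300, 8593.5 and 9454.5 UMIs. Cones were thus well above the glial background for Rp1 at equal depth. Reep6 was seen in 53.2%, 46.9% and 44.9% of thinned rods but in only 4.76% (2.56 to 8.01), 2.64% (1.45 to 4.38) and 5.04% (3.10 to 7.67) of thinned cones. The glial shares of 4.55%, 4.00% and 4.34% lay inside these cone intervals. Reep6 in these glia-like cells was more than 2-fold above the level carried with Gnat1 and Arr3, as given further on. How much of the glial share came from free RNA was not tested. Without thinning Reep6 was in 60.8%, 55.4% and 60.7% of rods, 23.0%, 13.8% and 15.8% of cones and 30.2%, 29.0% and 32.6% of glia.

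For the disc-rim pair in thinned cones, Prph2 was seen in 72.5%, 67.8% and 65.5% of cells and Rom1 in 66.7% (60.7 to 72.2), 73.4% (69.5 to 77.2) and 65.5% (60.6 to 70.2). The share of cones with Rom1 was highest in rd10-vehicle, but its interval overlapped those of the other libraries. Without thinning, Rom1 was in 96.8%, 96.5% and 93.7% of cones. Cdhr1 was seen in 45.8% (39.8 to 51.9), 35.0% (31.0 to 39.3) and 37.0% (32.3 to 42.0) of thinned cones and in 19.0%, 20.3% and 21.2% of thinned rods. Unthinned, Cdhr1 was in 88.1%, 81.2% and 82.3% of cones and 26.0%, 30.04% and 30.7% of rods, and the cones were the deeper cells.

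The rods of rd10-vehicle were set against those of WT to ask how the rods that remain in the rd10 retina differ. Rpgrip1 and Rp1 were the lowest of the 9 in rd10-vehicle, with log2 ratios of -0.48 (-0.57 to -0.38) and -0.44 (-0.50 to -0.37), and Rp1l1 followed at -0.30 (-0.56 to -0.05). Prph2 at -0.18 (-0.25 to -0.12), Reep6 at -0.19 (-0.34 to -0.05) and Rom1 at -0.10 (-0.15 to -0.04) were lower by less. Against that, Cdhr1 at 0.30 (0.05 to 0.53) and Tulp1 at 0.10 (0.02 to 0.18) were higher, and Prom1 at -0.03 (-0.18 to 0.12) did not differ beyond counting error. So 6 of the 9 genes lay below equality and 2 above it beyond counting error, where the same held for 10.3% and 7.81% of all 9111 genes measured. The 9 genes had many UMIs, which narrows their intervals. Among the 2318 genes with at least 200 UMIs the shares were 18.0% below and 15.3% above, and Rpgrip1 ranked 170 and Rp1 208 from the lowest.

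The median over the 9 genes in rods was -0.18, beside -0.05 for all genes. Both rd10 libraries were female, so sex and genotype cannot be told apart in the comparison with mixed WT as a whole. With WT limited to the 483 rods that had Xist UMIs and none from Y-linked genes, the median over the 9 genes was -0.13 beside -0.11 for all genes, with Rp1 at -0.48, Rpgrip1 at -0.62 and Rom1 at -0.02. Genes of other cell types also differed between the groups in rods. All 10 cone markers were seen in the rods of each library, and their summed level was 398, 1075 and 643 CPM. Most of the difference in that sum came from Gnb3 alone, at 82.3, 683 and 325 CPM. Arr3 stood at 64.0, 79.0 and 58.6 CPM in rods, and Opn1sw at 57.3, 65.1 and 44.3 CPM. The summed level of the 11 Müller glia markers, all seen as well, was 263, 759 and 643 CPM, and that of 9 rod markers 31856, 32354 and 34954 CPM. Lens markers, of which 3, 5 and 6 of 6 were seen, summed to 2.22, 91.8 and 116 CPM, and amacrine markers, of which 8, 6 and 4 of 8 were seen, to 185, 34.9 and 35.6 CPM. Rods with no UMI of Arr3, Opn1sw, Opn1mw or Pde6h gave -0.46 for Rp1, -0.50 for Rpgrip1, -0.04 for Rom1, 0.12 for Tulp1 and 0.29 for Cdhr1. The part of glial, lens or amacrine RNA in these ratios was not tested.

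In the rods of rd10-TMB against those of rd10-vehicle, 3 genes were higher beyond counting error, none was lower, and all differences were small. Prph2 differed by 0.18 (0.12 to 0.25), Rom1 by 0.14 (0.08 to 0.20) and Rpgrip1 by 0.12 (0.02 to 0.23) on the log2 scale. Rp1 at 0.02 (-0.05 to 0.09), Rp1l1 at 0.04 (-0.24 to 0.33), Tulp1 at -0.03 (-0.11 to 0.05), Prom1 at 0.11 (-0.05 to 0.27), Cdhr1 at -0.09 (-0.34 to 0.16) and Reep6 at 0.06 (-0.10 to 0.21) had 0 inside their intervals. Of all 8387 genes measured, 4.54% were above and 4.52% below equality beyond counting error, and of the 1817 genes with at least 200 UMIs 11.1% and 7.32%. The median over the 9 genes was 0.06, beside 0.00 for all genes, and ran from 0.0077 to 0.11 over the alternatives.

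This comparison uses the same rd10-vehicle library as the one before it, so counting error in that library enters both with opposite signs. The levels are therefore best read side by side. In rods Prph2 stood at 4031, 3547 and 4021 CPM and Rom1 at 4707, 4396 and 4840 CPM, so that rd10-TMB differed from WT by -0.00 (-0.06 to 0.05) and 0.04 (-0.01 to 0.09) on the log2 scale. Rp1 at -0.42 (-0.48 to -0.36), Rpgrip1 at -0.35 (-0.44 to -0.27), Rp1l1 at -0.26 (-0.48 to -0.04) and Reep6 at -0.14 (-0.26 to -0.01) were lower in rd10-TMB than in WT. Tulp1 at 0.07 (0.0013 to 0.14) was higher, and Cdhr1 at 0.21 (-0.01 to 0.42) and Prom1 at 0.08 (-0.06 to 0.20) had 0 inside their intervals.

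**Figure D4:**
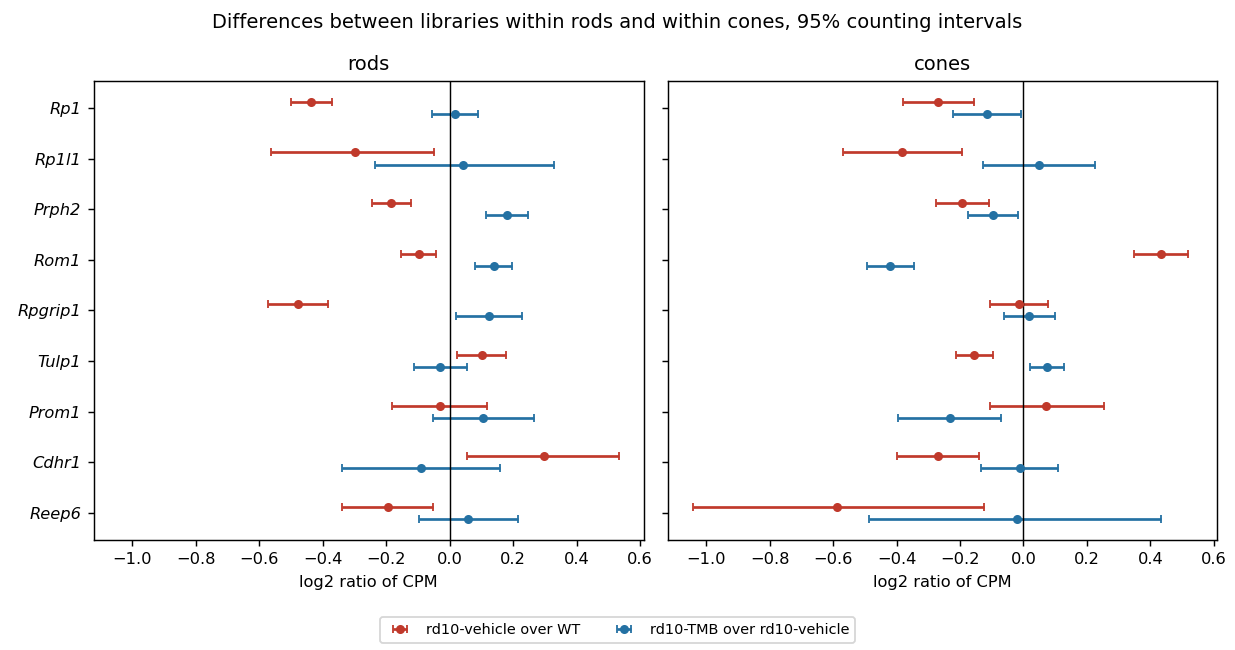
Log2 ratio of CPM between libraries for each gene, in rods on the left and in cones on the right, for rd10-vehicle over WT in red and rd10-TMB over rd10-vehicle in blue, with 95% counting intervals. Rom1 in cones is 0.43 above WT in rd10-vehicle, and rd10-TMB is -0.42 from rd10-vehicle, unlike its small ratios in rods.

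In cones, Rom1 was the gene that set itself apart. Rom1 was higher in rd10-vehicle than in WT, by 0.43 (0.35 to 0.52) on the log2 scale or 1.35-fold, while 6 others were lower. These were Reep6 at -0.59 (-1.04 to -0.12), from few UMIs, Rp1l1 at -0.38 (-0.57 to -0.19), Cdhr1 at -0.27 (-0.40 to -0.14), Rp1 at -0.27 (-0.38 to -0.15), Prph2 at -0.19 (-0.28 to -0.11) and Tulp1 at -0.15 (-0.21 to -0.09). Rpgrip1 at -0.02 (-0.11 to 0.08) and Prom1 at 0.07 (-0.11 to 0.25) did not differ beyond counting error. Thus 1 of the 9 lay above and 6 below equality, beside 6.57% and 8.36% of all 9729 genes measured and 10.9% and 14.0% of the 3223 with at least 200 UMIs. Among those 3223 genes Rom1 ranked 132 from the highest, and Rp1l1 ranked 220 from the lowest. The median over the 9 genes was -0.19, beside -0.06 for all genes.

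The cones of rd10-TMB were lower than those of rd10-vehicle for Rom1, by -0.42 (-0.49 to -0.35), which is 0.748 of the rd10-vehicle level. Among the 3673 genes with at least 200 UMIs this ranked 66 from the lowest. Prom1 at -0.23 (-0.40 to -0.07), Rp1 at -0.11 (-0.22 to -0.01) and Prph2 at -0.10 (-0.18 to -0.02) were also lower, and Tulp1 at 0.08 (0.02 to 0.13) was higher. In Rp1l1, at 0.05 (-0.13 to 0.23), Rpgrip1, at 0.02 (-0.06 to 0.10), Cdhr1, at -0.01 (-0.13 to 0.11), and Reep6, at -0.02 (-0.49 to 0.43), no difference was detectable at this depth. The value of Reep6 was unstable and came to 0.97 when cells were thinned. So 4 of the 9 were below and 1 above, beside 4.53% and 5.16% of all 9940 genes measured and 6.26% and 9.42% of those with at least 200 UMIs. The median over the 9 genes was -0.02, beside 0.01 for all genes.

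Both cone comparisons share the rd10-vehicle library, which alone held the high Rom1 value, and against WT the rd10-TMB cones differed by 0.01 (-0.08 to 0.10) in Rom1. The other genes of rd10-TMB cones were mostly lower than in WT: Reep6 at -0.61 (-1.09 to -0.13), Rp1 at -0.38 (-0.50 to -0.26), Rp1l1 at -0.33 (-0.52 to -0.14), Prph2 at -0.29 (-0.38 to -0.20), Cdhr1 at -0.28 (-0.41 to -0.15) and Tulp1 at -0.08 (-0.14 to -0.02). Rpgrip1 at 0.00 (-0.09 to 0.10) and Prom1 at -0.16 (-0.35 to 0.03) had 0 inside their intervals. Over the alternatives reported here, Rom1 in cones lay between 0.35 and 0.50 for rd10-vehicle over WT and between -0.43 and -0.36 for rd10-TMB over rd10-vehicle. With only cells of a mitochondrial share of 10% or less, which left 195 of 278, 257 of 542 and 190 of 412 cones, the ratios were 0.40 and -0.42. The median mitochondrial share of cones was 8.77%, 10.2% and 10.3%. Outside rods and cones, Rom1 in CPM, with free photoreceptor RNA included, had no common direction between rd10-vehicle and WT. It was higher in rd10-vehicle in clusters 6 and 10, at 703 against 542 CPM and 635 against 463 CPM, with rd10-TMB as high, at 707 and 635 CPM. It was lower in cluster 2, at 351 (328 to 374) against 425 CPM (397 to 455), and the intervals of both libraries overlapped in clusters 3, 7 and 8. Gnat1 in cluster 2 was 45.5 CPM in rd10-vehicle and 101 CPM in WT. As a multiple of the level carried by free RNA, Rom1 in cluster 2 was 6.10 in rd10-vehicle and 3.76 in WT. That multiple was also higher in rd10-vehicle in clusters 3, 6, 7, 8 and 10. The part of free RNA in these differences was not tested. In cluster 0, higher in rd10-vehicle, and cluster 11, lower, Rom1 was near the level that free photoreceptor RNA carries, at 0.97 to 1.17 and 0.92 to 1.18 times.

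Other values moved with the groups in cones. Arr3, the cone arrestin gene, stood at 4757 (4644 to 4871), 3714 (3639.5 to 3789) and 5007 CPM (4913 to 5102), lowest in rd10-vehicle where Rom1 was highest. The 10 cone markers summed to 46519.5, 42738 and 44101 CPM, the 9 rod markers to 8719.6, 8474 and 9181 CPM, and the 11 Müller glia markers to 335, 768 and 710 CPM, of which 11, 10 and 11 were seen. The sum of the rod markers is no gauge of rod RNA in cones. In WT cones most of it was Sag, at 5072 CPM, and Gngt1, at 3237 CPM, while Gnat1 stood at 106 and Nrl at 26.0 CPM. Lens markers summed to 0, 24.95 and 36.8 CPM, with all 6 at 0 in WT. The part of glial or lens RNA in the cone ratios was not tested. WT cones of both sexes were set against female rd10 cones, and with WT limited to the 126 cones that had Xist UMIs and none from Y-linked genes the ratio of Rom1 was 0.44, while Tulp1 came to -0.02 and Rp1 to -0.18. Thinned to 1000 UMIs per cell, the ratio of Rp1 was 0.044, so its direction in cones depended on the processing.

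Outside rods and cones, the question was whether the 9 genes exceeded what free photoreceptor RNA brings to every droplet. For each of 8 further clusters with at least 50 cells per library, the level carried was set from the cluster's own Gnat1 and Arr3, the gauges of rod and cone RNA, and from the ratio of each gene to them in the rods and cones of the same library. Gnat1 gave as few as 20 UMIs in a cluster, which limits the precision of these multiples, and which clusters passed 2-fold for Prph2, Rpgrip1 and Rp1l1 depended on the gauge gene. Rp1 stayed at 0.610 to 2.01 times that level in the 8 clusters and 3 libraries, and in no cluster did it reach 2-fold in all libraries. Rp1l1 reached 2-fold in all libraries in no cluster either, with few UMIs throughout. Prph2, Rom1, Rpgrip1, Tulp1, Prom1, Cdhr1 and Reep6 exceeded it by 2-fold in every library in at least 1 cluster.

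Rom1 was the most widespread, in 6 of the 8 clusters. In cluster 6, led by Igfn1 and Gnat3 and left unnamed, Rom1 stood at 542, 703 and 707 CPM, which was 4.99, 10.1 and 6.61 times the level carried. In cluster 10, led by Cck and Fgf3, it stood at 463, 635 and 635 CPM, or 3.84, 7.71 and 5.06 times. The other 4 clusters with Rom1 were the rod bipolar-like cluster 2, cluster 3 (Htr3a, Cntn5), cluster 7 (Otor, Grik1) and the OFF cone bipolar-like cluster 8, at 2.17 to 6.53 times. Its partner Prph2 exceeded the level carried by 2-fold in all libraries in clusters 2 and 8, with 420, 355 and 331 CPM in cluster 8, and in cluster 3 it stood at 1.78, 4.37 and 2.23 times. In clusters 6 and 7 Prph2 was at or under the level carried, at 0.62 to 0.86 and 0.76 to 0.91 times, so no ratio of the pair is given there.

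Rpgrip1 and Tulp1 met in cluster 7, which carried markers of both OFF and ON cone bipolar cells. There Rpgrip1 stood at 467, 428 and 302 CPM, or 5.44, 7.82 and 4.24 times the level carried, and Tulp1 at 278, 327 and 264 CPM, or 2.65, 3.31 and 2.27 times. Rpgrip1 was also over 2-fold above in clusters 3 and 6, and in cluster 10 stood at 1.95, 2.01 and 2.27 times. Cdhr1 was high in the OFF cone bipolar-like cluster 8, at 115, 101 and 77.5 CPM, which was 9.79, 12.1 and 7.42 times, and over 2-fold above in cluster 3. Reep6 was above in the Müller glia-like cluster alone, at 3.48, 2.48 and 2.56 times.

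Prom1 was furthest above the level carried in the endothelial-like cluster 11, at 193, 178 and 188 CPM, which was 16.9, 45.1 and 25.6 times. It was also over 2-fold above in cluster 10, at 2.80, 3.10 and 2.66 times. In cluster 9, led by Myf6, Neurod6, Prdm13 and Ebf3 and left unnamed, Prom1 stood at 249 (219 to 283), 717 (601 to 849) and 761 CPM (629 to 912). This cluster held 295 WT but only 62 rd10-vehicle and 48 rd10-TMB cells, and whether its make-up differed between libraries was not tested.

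**Figure D5:**
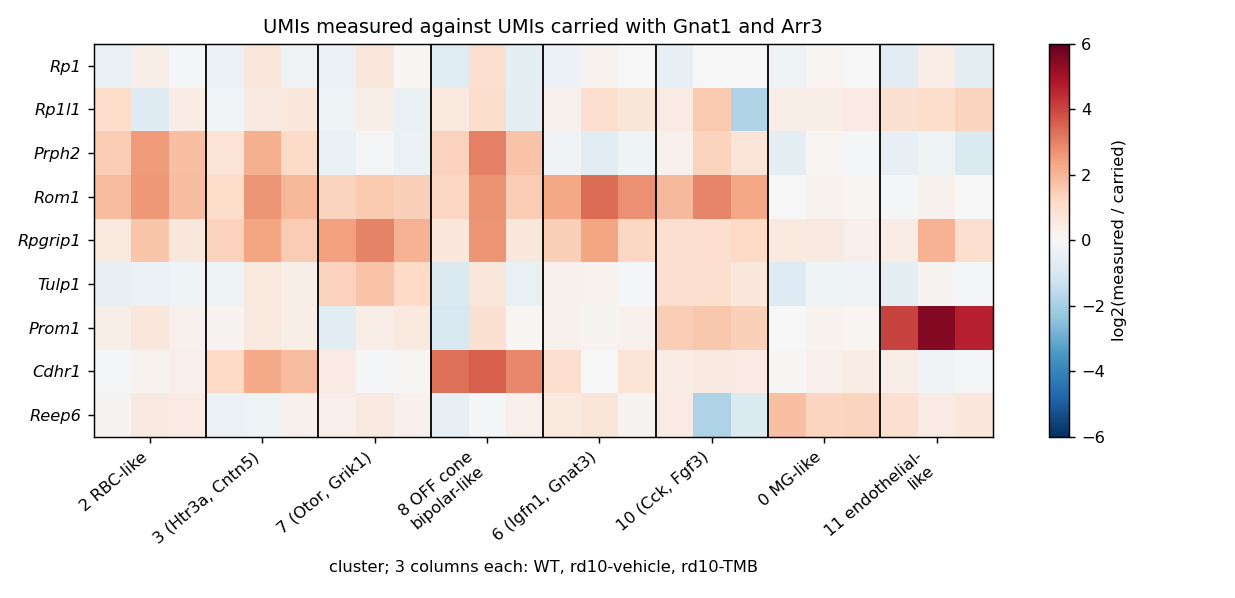
Log2 of the measured level over the level carried with Gnat1 and Arr3 for each gene in 8 clusters outside rods and cones, with 3 columns per cluster for WT, rd10-vehicle and rd10-TMB. White marks equality: Rp1 is pale throughout, Prom1 is dark in the endothelial-like cluster and Rom1 in clusters 6 and 10.

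To place the 9 genes among others of the same structures, 79 further genes of the outer segment and cilium were read from 3 lists. Of the 70 with at least 20 UMIs over rods and cones in every library, 7 (Cngb1, Fscn2, Cep164, Bbs7, Bbs9, Adgrv1 and Poc1b) were at least 2-fold higher in rods in all 3, and 2 (Pcdh15 and Myo7a) were at least 2-fold lower, beside 5.16% and 6.05% of all genes. Next, 62 genes with at least 200 UMIs over rods and cones of the 3 libraries together were ranked by their mean ratio over the libraries. In that order Cngb1, the beta subunit gene of the rod cation channel, had the highest ratio of rods over cones, at 5.63, 5.37 and 5.49. Fscn2, an actin-bundling fascin gene of photoreceptors, followed at 2.90, 3.32 and 3.71, and Cep164, a gene of the distal appendages of the mother centriole, at 1.91, 2.33 and 2.40. Higher in cones were Pcdh15, a protocadherin gene of Usher syndrome, at -1.64, -1.50 and -1.63, and Pde6d, which encodes a carrier of prenylated cargo, at -1.10, -0.89 and -0.82. Ift52, an intraflagellar transport gene, at -1.31, -0.48 and -0.49, had 0 inside its interval in both rd10 libraries.

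By list, the median log2 ratio of rods over cones was 0.38, 0.39 and 0.57 for the transition zone and connecting cilium, with 4, 3 and 4 of 29, 28 and 28 genes at least 2-fold higher, near the 12.3%, 10.8% and 10.9% of all genes. For intraflagellar transport, the BBSome and lipid-anchored cargo it was 0.34, 0.46 and 0.43, with 6, 6 and 3 of 30, 29 and 30 genes. For discs, calyceal processes and matrix it was 0.41, 0.09 and 0.64, with 3, 4 and 3 of 13 genes in each library.

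Between the rods of rd10-vehicle and WT, 11 of 70 genes of the wider lists were lower and 7 higher beyond counting error, beside 10.3% and 7.81% of all genes, with a median of -0.14 beside -0.05 for all genes. The genes named here and in the next comparisons are from the ends of the ranking of those with at least 200 UMIs, 35 in this one, and genes with fewer UMIs were not ranked. Among the lowest were Cc2d2a, a transition zone gene, at -0.83 (-1.36 to -0.38) and Ccdc66, a centrosome and cilium gene, at -0.62 (-1.11 to -0.18). The highest of the 35 was Arl6, a small GTPase gene that recruits the BBSome, at 0.83 (0.64 to 1.03), then Bbs4 of the BBSome at 0.39 (0.09 to 0.69) and Arl3, a GTPase gene of lipid-anchored cargo, at 0.27 (0.13 to 0.42). In rods of rd10-TMB over rd10-vehicle 3 of 69 genes were higher and 3 lower, near the general 4.54% and 4.52%. Those at the ends of the 31 with at least 200 UMIs included Bbs7 at 0.27 (0.02 to 0.53), Cngb1 at 0.23 (0.10 to 0.37) and Arl6 at -0.33 (-0.53 to -0.14). Also at these ends, Cep250 at 0.34 (-0.08 to 0.79), Rpgr at -0.38 (-0.78 to 0.02) and Bbs4 at -0.27 (-0.59 to 0.05) had 0 inside their intervals. Arl6 stood at 267, 475 and 377 CPM in rods.

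In cones of rd10-vehicle over WT, 10 of 72 genes were lower and 5 higher, beside 8.36% and 6.57% of all genes. The lowest of the 34 with at least 200 UMIs were Cep164 at -0.49 (-0.80 to -0.16), Impg1, a gene of the interphotoreceptor matrix, at -0.48 (-0.71 to -0.25) and Cep250 at -0.45 (-0.72 to -0.17). The highest of the 34 were Bbs7 at 0.49 (0.09 to 0.93), Lca5 at 0.24 (0.01 to 0.49) and Arl6 at 0.24 (0.09 to 0.38). In cones of rd10-TMB over rd10-vehicle 3 of 73 were higher and 1 lower, no more than the 5.16% and 4.53% of all genes. The ends of the 37 with at least 200 UMIs held Bbs5 at 0.41 (0.09 to 0.74), Tub at 0.30 (0.04 to 0.56), Pcdh15 at 0.27 (0.17 to 0.36) and Cc2d2a at -0.40 (-0.81 to -0.02). Ift80 at -0.36 (-0.76 to 0.02) and Bbs7 at -0.30 (-0.65 to 0.04) had 0 inside their intervals.

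The genes whose level followed each of the 9 most closely were sought over 42 sums of cells from 19 clusters in the 3 libraries, among 11388 genes, by Pearson's r of log2(CPM + 1). These points share libraries, free RNA and the clusters that the genes themselves helped to make, so r is a description. Rp1 was most like Pdc (0.96), Sag (0.95) and Pdzph1 (0.95), Tulp1 most like Impg2, Sag and Rtbdn (0.95 each), and Rpgrip1 most like Tulp1 (0.94), Rbp3 (0.93) and Rp1 (0.92). Among the 3 genes most like Rp1l1 were Rdh12 (0.91) and Impg2 (0.90), and Cdhr1 was most like Aipl1 (0.92), Sag (0.90) and Gngt1 (0.89). Among the 3 nearest to Prph2 were Sag (0.91) and Agpat3 (0.89), whereas its partner Rom1 was nearest to Anp32e (0.94), Crx (0.94) and Unc119 (0.93). Reep6 went with rod phototransduction genes, Cnga1 (0.89), Pde6a (0.88) and Gnat1 (0.87). The values for Prom1 were the lowest of the 9, with Jag1 (0.87), Atp11b (0.82) and Ppm1n (0.78). Within the 9, r ran from 0.38 for Rom1 and Prom1 to 0.94 for Rpgrip1 and Tulp1, and was 0.88 for Prph2 and Rom1.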

How the data were processed

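Droplet single-cell RNA libraries (10x Genomics v3 chemistry) were made from papain-dissociated retinas, 1 pooled library per group. The authors aligned reads to mm10 with Cell Ranger 6.0.1, combined the matrices in Cumulus, took out doublets by Scrublet, kept cells with at least 500 genes, corrected for library with Harmony and clustered with Seurat 3.2.2. Deposited matrix values are natural logs of 1 plus the UMIs of a gene per 10000 in its cell, and the deposited cell table gives each cell's total UMI count, library and cluster number. All 32620606 entries were turned back into UMI counts, and 100% were whole within 0.001 UMI. No cell filter or doublet caller was added. No column of per-sample values was left unmapped.

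UMIs were summed per cluster and library and scaled to CPM with Python 3.11.15, numpy 2.4.6, scipy 1.17.1 and pandas 2.3.3. For log2 ratios 1 UMI was added to each side, and a gene was measured with at least 20 UMIs over both sides. Intervals are exact at 95% (Poisson for levels, conditional binomial for ratios, Clopper-Pearson for shares). UMIs limit amplification copies, but the intervals cover counting error only. The study tested genes over cells with MAST, which was not used, since cells are not replicates. Shares of cells used random draws of 1000 UMIs per cell, without cells below that depth.

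A cluster was named from markers at 20 CPM or more and at least 2-fold over the remaining cells, with 3 such markers and 1 among its top 10 genes by fold. Names were rebuilt here and may differ from those of the study. The members and lists were chosen with earlier results of these data known. Genes were named by this rule: the 9 members, the 3 genes most correlated with each member among genes with at least 500 UMIs, over sums of at least 200000 UMIs, and from the wider lists the 3 highest and 3 lowest ratios per comparison among genes with at least 200 UMIs. BC027072 of the wider lists and the marker Septin4 had no entry under that symbol and were not used. The 11 alternatives given were other scalings, cell filters, thinning, count minimums and fold limits, and unthinned shares and the gauge of free RNA were added after seeing the data. Results that need some genes are not reported here. Scripts were tested on simulated data. Positions and promoters are from RefSeq GRCm38.p6, the build of mm10.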

Additional observations from a re-analysis of the deposited data

Results flagged for a closer look

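Some genes differed in opposite directions in rods and in cones of the same pair of libraries, each beyond counting error. The difference between rods and cones was itself not tested, since there was 1 library per group. For rd10-vehicle over WT, the log2 ratio in rods minus that in cones was -0.53 for Rom1 (-0.10 in rods, 0.43 in cones), 0.26 for Tulp1 (0.10 and -0.15) and 0.57 for Cdhr1 (0.30 and -0.27). With WT limited to cells that had Xist UMIs and none from Y-linked genes, Rom1 in rods was -0.02 and Tulp1 in cones was -0.02, both close to 0, while Cdhr1 was 0.38 in rods and -0.26 in cones. For rd10-TMB over rd10-vehicle the ratio in rods minus that in cones was 0.28 for Prph2 (0.18 and -0.10) and 0.56 for Rom1 (0.14 and -0.42). Rom1 is in both lists, and both rest on the same rd10-vehicle library.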

How the results depend on the processing

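No paired analysis was possible because each group had 1 library, and for the same reason no replicate could be left out. The count of 5 genes at least 2-fold higher in rods in all libraries was 4 with median-of-ratios size factors, where Prom1 came to 0.96 in rd10-vehicle, and with thinning, where Prom1 came to 0.97 in WT and 0.96 in rd10-vehicle, and 5 under each other alternative given here, a 1.5-fold limit included. The median over the genes in rods, rd10-vehicle over WT, moved from -0.18 to -0.26 with cells of at least 1000 genes, where the median of all genes was 0.08, and to -0.29 with a mitochondrial share of 10% or less, and the cause was not tested. In cones, the median for rd10-TMB over rd10-vehicle, -0.02, was above 0 with the mean over cells (0.00), the mitochondrial limit (0.04), the deepest 5% of cells left out (0.01) and thinning (0.03), so its sign depended on the processing. The cone median for rd10-vehicle over WT, -0.19, came to -0.11 with the mitochondrial limit, and the rod median for rd10-TMB over rd10-vehicle, 0.06, to 0.0077 with cells of at least 1000 genes and to 0.11 with the mitochondrial limit. Rp1 in cones, rd10-vehicle over WT, turned from -0.27 to 0.044 when thinned, the only called ratio that reversed, and the cause was not tested. Of the other single-gene ratios under alternatives, 434 stayed within the spread allowed and 69 moved. The median share of cells with a UMI over the 9 genes was higher without thinning, an alternative chosen after seeing the data: in rods from 78.3%, 66.8% and 68.0% to 89.2%, 77.0% and 80.6%, in cones from 45.8%, 46.5% and 39.0% to 92.1%, 86.2% and 85.4%, and in the Müller glia-like cluster from 4.55%, 5.49% and 5.79% to 30.2%, 29.0% and 32.3%. Depth limits most the cone values of Reep6, which rest on 75 to 90 UMIs per library.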
